A study of Rousettus aegyptiacus with 32 samples.

Results

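This account describes 4768 regions of the Egyptian fruit bat genome (Rousettus aegyptiacus) with a peak of open chromatin in every cerebellar and every cortical library and in no striatal one. They were 1.21% of the 392976 regions obtained by merging the peaks of the 2 cerebellar and 8 cortical libraries, and 8.62% of the 55314 regions with a peak in all 10. The rule needed at least 1 base of overlap with a listed peak in each of the 10 libraries and no overlap with any listed peak in the 4 striatal libraries. Presence and absence of peaks in these 14 libraries therefore are the measured values the regions were selected on, and they are given below as description, with no test.

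ATAC-seq maps open chromatin by letting a transposase cut accessible DNA, and a peak marks a place cut more often than its surroundings, often a promoter or an enhancer. Most neurons of the cerebellum are granule cells, and the main output neurons of the cortex are pyramidal cells; both release glutamate. The projection neurons of the striatum release GABA instead. Each tissue also holds interneurons and glia, so a bulk library averages over many cell types.

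The ATAC-seq libraries came from nuclei of cryopreserved bulk tissue of 2 adult males, bat 1 and bat 3, with 1 library per animal and tissue. The tissues were cerebellum, secondary auditory cortex (2A), the orofacial part of primary motor cortex (ofM1), its wing part (wM1), premotor cortex (PreM), caudate nucleus, putamen, liver, pectoralis muscle and testis, giving 20 libraries. No treatment or mutation is given for any animal, and n is 2 animals throughout. The 12 RNA-seq libraries came from other animals and included no cerebellum, and they were not used here. In bulk tissue, fewer cells with an open region and weaker opening per cell cannot be told apart. The labelled tissues could not be checked against marker genes, because the gene table at hand places no gene on a scaffold.

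The authors deposited 1 peak list per library, with a fold enrichment over background and a -log10 p for each peak. After rows with the same interval were joined, brain lists held 155151 to 196988 intervals. Every brain list held exactly 300000 rows before this step, the most that any list held, so weaker peaks may have been left out. Read depth is unknown, and the lists ended at different strengths. The weakest listed -log10 p was 3.30 to 8.64 in cerebellar and cortical libraries, against 4.65 to 12.3 in striatal ones. Absence from a striatal list therefore means that no interval as strong as that list's weakest was present. When all 14 lists were limited to a common -log10 p floor, 1675 regions fitted the rule. With only the 50000 strongest intervals of each list counted as present in the 10 libraries, and striatal peaks of any strength still counted, 220 remained.

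The 4768 regions had a median width of 1088 bases, and the middle 90% ran from 569.4 to 1903 bases. Regions with a peak in all 14 brain libraries were wider, with a median of 1287 bases over 46044 regions. The width is that of the union of 10 libraries' peaks. The longest single peak covered a median of 57.2% and 53.7% of a region in the cerebellar libraries of bats 1 and 3, and 48.8% to 85.2% in the cortical ones. In 868 regions, a peak of each of the 10 libraries covered at least 50% of the region.

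Peaks in these regions were weaker than peaks shared by the whole brain, in both tissues. The median fold enrichment in cerebellum was 3.77 in bat 1 and 3.71 in bat 3. In cortex it was 6.10 and 4.81 in 2A, 4.06 and 5.09 in ofM1, 5.13 and 4.95 in wM1, and 4.13 and 5.11 in PreM, for bats 1 and 3 in that order. The cerebellar medians lay below all 8 cortical ones. In the regions open in all 14 brain libraries, medians were higher in every one of the 10 libraries, at 7.22 and 6.42 in cerebellum and 6.09 to 8.63 in cortex. Of the 4768 regions, 25% to 37.7% had a peak among a library's 50000 strongest, against 66.6% to 71.4% of the regions open in all 14. That comparison is a description, since the rule used the same lists.

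**Figure D1:**
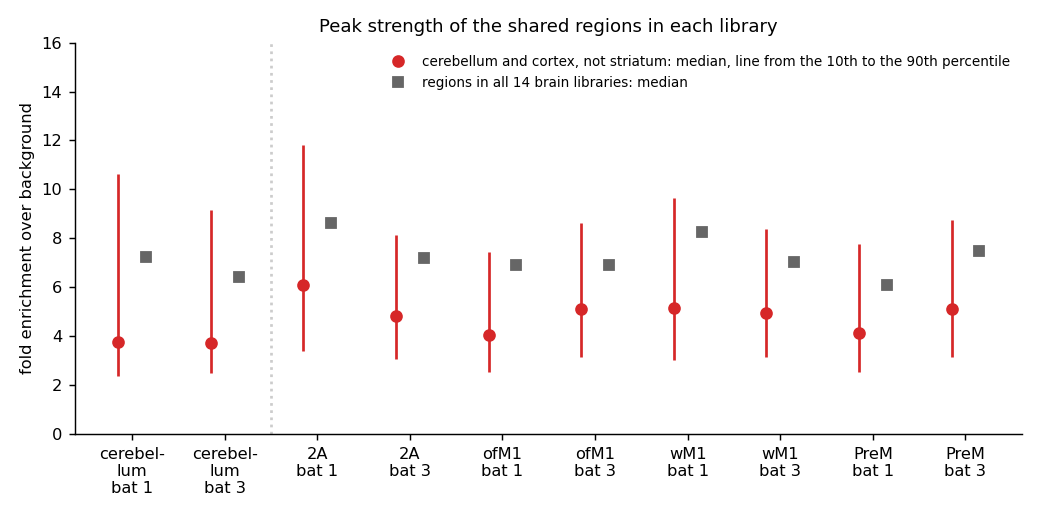
Fold enrichment over background in each cerebellar and cortical library. Red points are medians of the 4768 regions with lines from the 10th to the 90th percentile, grey squares are medians of the 46044 regions with a peak in all 14 brain libraries, and every red point lies below its grey square.

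The weakest of a region's 10 -log10 p values had a median of 7.56, with 4.47 at the 10th percentile and 20.3 at the 90th. Each list ended at its own floor, so this value is no common distance to the edge of the rule. The weakest value belonged to the cerebellum of bat 3 in 2035 regions and to that of bat 1 in 439. Among cortical libraries, ofM1 of bat 1 held it most often, in 1015 regions. The lists of cerebellum of bat 3 and ofM1 of bat 1 also had the lowest floors of the 10, 3.53 and 3.30. The lowest of these values was in a region on scaffold NW_023416284.1 from 127678082 to 127679005. In ofM1 of bat 1 it had a -log10 p of 3.30, the floor of that list, and a fold of 2.05. Its highest fold in another library was 19.6. Just outside the rule, 1419 regions had a peak in all 10 libraries and in exactly 1 striatal library. That library was the putamen of bat 1 for 538, the putamen of bat 3 for 436, the caudate of bat 3 for 323 and the caudate of bat 1 for 122. The median fold of those striatal peaks was 2.63 to 2.87 by library. Caudate of bat 1 had the highest floor, a -log10 p of 12.3. On the other side, 3925 regions had no striatal peak and a peak in 9 of the 10 libraries. The missing library was the cerebellum of bat 1 in 1860 of these and the cerebellum of bat 3 in 969.

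The strongest regions had high folds in all 10 libraries. Ranked by the weakest -log10 p over the libraries, the first was an 853-base region on NW_023416285.1 from 57415479 to 57416331. Its fold was 27.4 and 28.3 in the cerebellum of bats 1 and 3. In cortex it was 25.6 and 14.9 in 2A, 12.8 and 18.8 in ofM1, 20.5 and 19.4 in wM1, and 17.2 and 20.2 in PreM. Both cerebellar libraries were above all 8 cortical ones, whose mean was 18.7 ± 3.85 (SD, n = 8), and the summits of the 2 tissues lay 20 bases apart.

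The second region, on NW_023416286.1 from 21279441 to 21280498, had folds of 13.7 and 12.2 in cerebellum and 11.4 to 19.3 in cortex, with a cortical median of 13.5. Here the unscaled folds of the tissues overlapped. The third, on NW_023416307.1 from 14896120 to 14897047, had 15.2 and 12.2 in cerebellum and 9.56 to 13.5 in cortex, with a median of 11.4. It was the only one of the first 10 with no peak in liver, muscle or testis of either animal.

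The fourth and the seventh, on NW_023416284.1, were weaker in cerebellum. The fourth, from 134210516 to 134212074, had folds of 8.26 and 8.43 in cerebellum and 9.54 to 15 in cortex (median 11). The seventh, from 172631371 to 172632657, had 7.54 and 7.64 in cerebellum and 8.57 to 12 in cortex (median 9.45). In both, each cortical library's unscaled fold was above both cerebellar ones.

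The sixth, on NW_023416285.1 from 31157903 to 31159310, went the other way, with 16.9 and 14.9 in cerebellum and 8.93 to 13.2 in cortex (median 10.3). The other 4 had folds of 9.47 to 13.6 in cerebellum and 7.67 to 15.4 in cortex, and the unscaled folds of the tissues overlapped in each. They lay on NW_023416311.1 (52214318 to 52215928 and 68572853 to 68574114), NW_023416290.1 (28580116 to 28581807) and NW_023416295.1 (79188198 to 79189379). No gene can be named for any of these positions here.

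**Figure D2:**
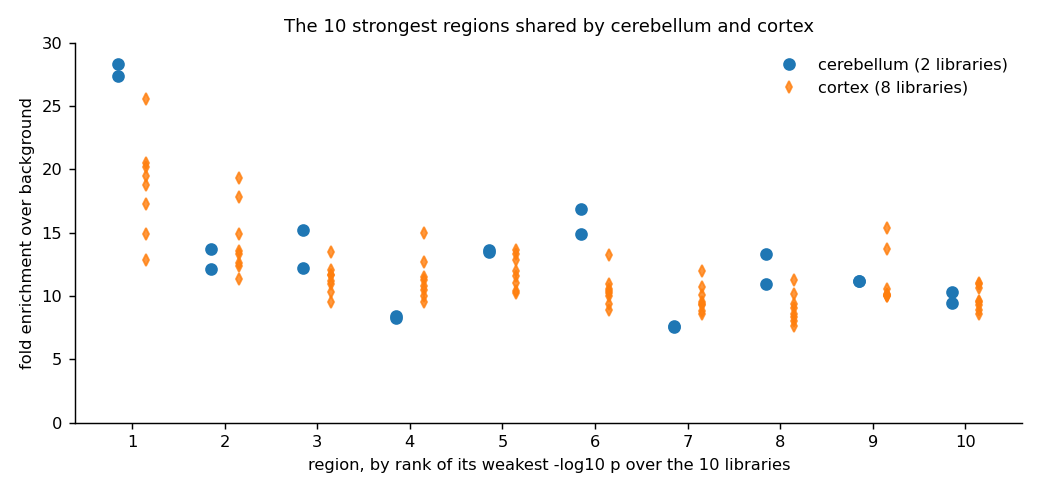
Fold enrichment of the 10 regions with the highest weakest -log10 p, with 2 cerebellar libraries as circles and 8 cortical libraries as diamonds. In these unscaled folds, cerebellum lies above all cortical libraries in regions 1 and 6 and below all of them in regions 4 and 7.

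Shared opening did not mean matched strength. Each fold was divided by the library's own median over the regions open in all 14 brain libraries, which gives a relative fold that can be set side by side between libraries. On this scale cerebellum was above all 8 cortical libraries in regions 1, 3, 5, 6 and 8 of the 10 strongest, cortex was above cerebellum in region 7, and the other 4 overlapped, region 4 among them. Over the 4768 regions, the log2 of the median relative fold averaged -0.86 ± 0.10 in cerebellum (SD, n = 2) and -0.57 ± 0.10 in cortex (SD, n = 8). The difference was -0.29. It is a description with no test, since the folds are those of the listed peaks the regions were selected on, and the libraries come from 2 animals. With each library's median over all its intervals in place of the regions open in all 14, the difference was -0.0094, so the lower cerebellar strength depends on the scaling. With -log10 p in place of fold it was -0.24.

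Single regions were often stronger in 1 tissue, about as often as among all regions with a peak in the 10 libraries. In 1148 regions (24.1%) both cerebellar relative folds were above all 8 cortical ones, against a background of 31.1% among all regions with a peak in the 10 libraries. In 1522 regions (31.9%) all cortical values were above both cerebellar ones, against a background of 24.2%. The remaining 2098 overlapped. By unscaled fold, cerebellum was above in 952 regions (20%, background 22.9%) and cortex in 1661 (34.8%, background 25%). By -log10 p, scaled in the same way as the relative fold, cerebellum was above in 1343 (28.2%, background 30.5%) and cortex in 1171 (24.6%, background 23.7%). On that scale more regions were higher in cerebellum than in cortex, as among all regions with a peak in the 10 libraries, and both shares were near the background. The log2 difference in relative fold between cerebellum and cortex had a median of -0.18, with -1.21 at the 10th percentile and 1.10 at the 90th.

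The extremes, chosen after their values were seen, show the size of this spread. On NW_023416307.1, the region from 31186668 to 31187903 had folds of 21.1 and 18.4 in cerebellum and 2.71 to 4.05 in cortex (median 3.24). On the same scaffold, the region from 36117468 to 36118153 had 22.8 and 20.9 in cerebellum and 2.76 to 4.62 in cortex (median 4.04). The reverse held on NW_023416285.1 from 55012512 to 55013988, with folds of 2.22 and 2.48 in cerebellum and 10.5 to 17.6 in cortex (median 12.8). It also held on NW_023416286.1 from 40043636 to 40044668, with 2.63 and 3.26 in cerebellum and 11.7 to 22.1 in cortex (median 14.7). In all 4 the groups were far apart, yet each library listed a peak and each striatal list held none.

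Across the 4768 regions, the strength in cerebellum said little about the strength in cortex. The log2 folds of a cerebellar and a cortical library had Pearson correlations of 0.01 to 0.16, with a median of 0.09 over 16 pairs of libraries. The same regions gave 0.90 between the cerebella of the 2 animals and 0.71 to 0.89 between cortical libraries (median 0.78, 28 pairs). In the regions open in all 14 brain libraries, cerebellum and cortex correlated at 0.55 to 0.65 (median 0.59). Regions open in cortex and striatum but not cerebellum gave 0.26 to 0.44 between those tissues (median 0.36), and regions open in cerebellum and striatum but not cortex gave -0.04 to -0.02 (median -0.03). These are correlations over regions, which share their libraries and the lists' floors, and they carry no p.

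**Figure D3:**
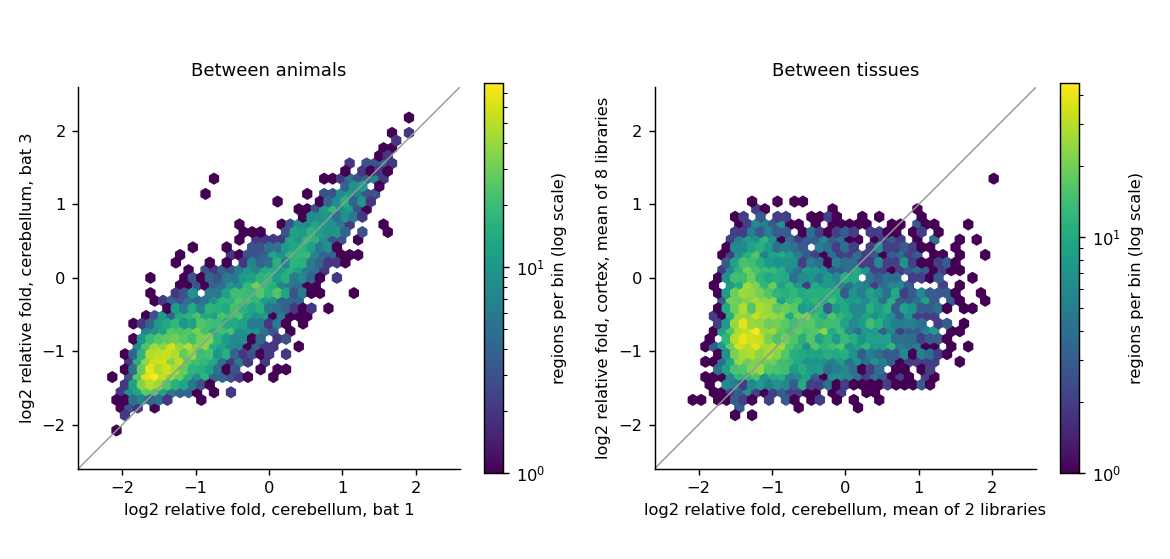
Log2 relative fold of the 4768 regions, as the number of regions per hexagon (log colour scale), between the cerebella of bats 1 and 3 (left) and between the mean of 2 cerebellar and the mean of 8 cortical libraries (right); the line marks equal values. The cloud follows the line between animals, where the correlation was 0.90, and spreads in both directions between tissues.

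The summits, the points of highest signal within a peak, also differed in position between the tissues. The median distance between the summits of a cerebellar and a cortical library was 53.5 to 66 bases over pairs of libraries. Between the 2 cerebella it was 18 bases, and between cortical libraries 10 to 21 bases. In the regions open in all 14 brain libraries the distances between cerebellum and cortex were shorter, at 15 to 18 bases. Pairs of libraries from different tissues averaged 59.5 bases and pairs from the same tissue 16 bases, a difference of 43.5 bases. That difference exceeded the 7.5 bases found in the regions open in all 14 by 36.0 bases. These distances are a description with no test, since the summits are those of the listed peaks the regions were selected on. The comparison was chosen after the distances were seen, and the libraries come from 2 animals.

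Per region, the median cerebellar summit lay within 50 bases of the median cortical one in 2170 of the 4768 (45.5%) and more than 250 bases away in 1125 (23.6%). In the regions open in all 14 brain libraries these shares were 73.0% and 12.8%. Regions shared by cortex and striatum but not cerebellum had 72.2% and 13.0%, and regions shared by cerebellum and striatum but not cortex had 22.8% and 42.7%. A clear example of distant summits, chosen after its values were seen, lay on NW_023416306.1 from 90280559 to 90281981. Its folds were 11.8 and 9.61 in cerebellum and 7.31 to 11.3 in cortex, and the cerebellar summit was 455 bases from the cortical one.

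Regions with distant summits were also wider, with a median of 1381 bases above 250 bases of offset, against 981.5 bases up to 50. A region's offset cannot exceed its width, so the measures are linked by construction. Widths by offset were not counted over other regions. By relative fold, cerebellum was above cortex in 29.8% of those with an offset up to 50 bases (background 34%) and in 18.6% of those above 250 (background 24.5%). Cortex was above in 25.7% up to 50 bases (background 21%) and in 39.6% above 250 (background 31.7%). The backgrounds, from all regions with a peak in the 10 libraries and the same offset, moved with the offset in the same directions. With close summits the correlation between cerebellar and cortical folds had a median of 0.13, and with distant ones -0.02. The correlation was low in both classes. In the regions open in all 14, the same classes gave 0.59 and 0.32.

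**Figure D4:**
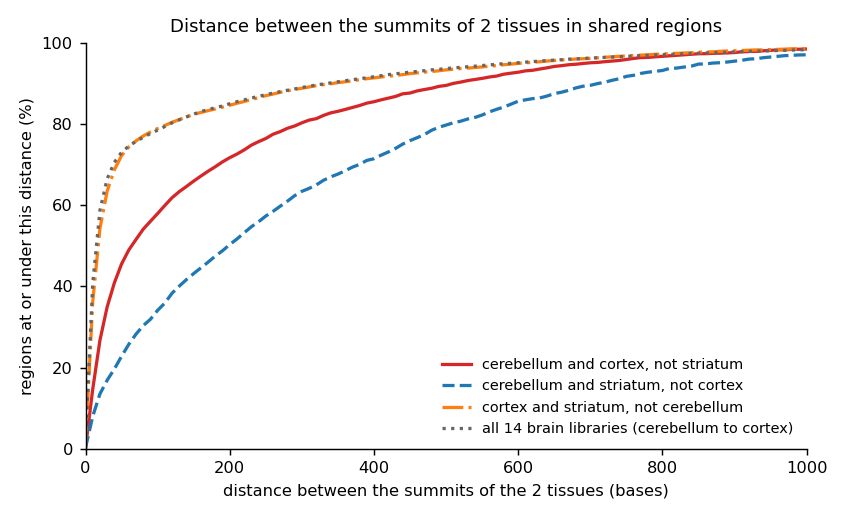
Cumulative share of regions by the distance between the median summits of the 2 tissues that share them. The 4768 regions (red) reach 45.5% at 50 bases, against 22.8% for cerebellum and striatum, 72.2% for cortex and striatum, and 73.0% for regions open in all 14 brain libraries.

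Within cortex, few regions favoured 1 area in both animals. Both 2A libraries were above the 6 other cortical libraries in 177 regions (3.71%, against a background of 2.71%). For PreM the count was 199 (4.17%, background 2.68%), for ofM1 99 (2.08%, background 1.74%) and for wM1 36 (0.755%, background 1.09%). Between the animals, all 4 cortical libraries of bat 3 were above those of bat 1 in 396 regions (8.31%, background 9.33%) and the reverse in 211 (4.43%, background 13.4%).

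The peripheral tissues were not part of the rule, but their libraries come from the same 2 animals. Their lists reached weaker peaks than the brain lists, with a weakest -log10 p of 2.00 to 2.80. The median fold of their peaks in the 4768 regions was 1.94 to 2.75 by library. Over all intervals of those libraries it was 1.92 to 2.75. Of the 4768 regions, 1434 (30.1%) had no peak in any of the 6 peripheral libraries, against a background of 9.32% among regions with a peak in the 10 libraries. This share was not particular to them. It was 28.0% in regions shared by cortex and striatum but not cerebellum, and 32.9% in those shared by cerebellum and striatum but not cortex. A peak in all 6 was found in 44 (0.923%), against 22.7% of the regions open in all 14 brain libraries. The share was 0.903% in regions shared by cortex and striatum and 0.638% in those shared by cerebellum and striatum. Both animals had a peak in liver in 289 regions (6.06%, background 23.8%), in muscle in 692 (14.5%, background 57.4%) and in testis in 675 (14.2%, background 50.7%). For liver, muscle and testis in that order, regions shared by cortex and striatum had 5.14%, 15.7% and 17.7%. Regions shared by cerebellum and striatum had 4.46%, 11.8% and 10.2%.

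Per library, 22.1% and 20.7% of the 4768 regions held a liver peak in bats 1 and 3, 28.0% and 29.8% a muscle peak, and 24.7% and 29.2% a testis peak. In the regions open in all 14 brain libraries, the liver shares were 36.3% and 59.0%, the muscle shares 76.5% and 74.5%, and the testis shares 69.1% and 65.8%. The share was lower in the 4768 regions in 6 of 6 libraries, with differences of -48.5 to -14.1 percentage points. The means were 25.7% ± 3.82 and 63.5% ± 14.8 (SD, n = 6 libraries from 2 animals). An exact two-sided sign-flip permutation test gave p = 0.0313, the smallest possible with 64 arrangements, and an adjusted p of 0.0938 over 3 comparisons, which missed 0.05 and could not have passed alone. The regions open in all 14 were also wider and stronger, and the part of this in the difference was not tested.

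The shares in regions that lacked only cerebellum or only cortex lay nearer. Regions shared by cortex and striatum averaged 27.0% ± 6.87, and the mean difference of the 4768 regions from them was -1.29 points, lower in 4 of 6 libraries (exact permutation p = 0.594, adjusted 0.594). Regions shared by cerebellum and striatum averaged 22.7% ± 5.84, and the 4768 regions were higher by 3.07 points, higher in 4 of 6 (exact permutation p = 0.219, adjusted 0.328). The differences by library ran from -8.07 to 5.78 points and from -3.91 to 9.36 points, so differences of that size were not separated from the spread.

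**Figure D5:**
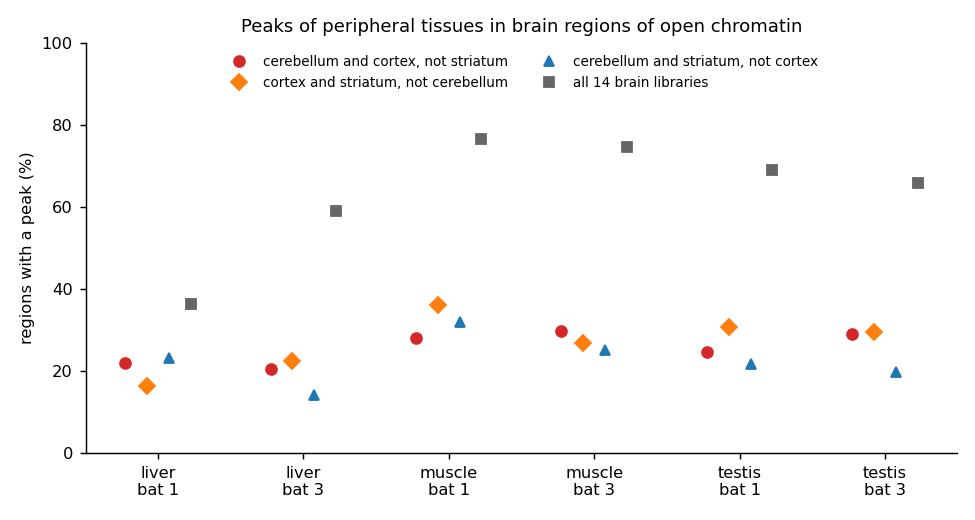
Percentage of each set of brain regions with a peak in each peripheral library. The 4768 regions (red) lie at 20.7% to 29.8%, close to the other sets that lack 1 brain tissue and below the regions open in all 14 brain libraries (36.3% to 76.5%) in every library.

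The regions were spread over 20 scaffolds. On the 18 scaffolds with at least 500 regions open in the 10 libraries, they made up 3.72% of those regions on NW_023416289.1 and 11.4% on NW_023416286.1, the lowest and the highest share. Most, 3021, had no other within 50 kb, and 1747 (36.6%) formed 718 groups of 2 or more. The same grouping was not counted over other regions, and whether these regions cluster was not tested. The largest group held 11 regions in 175 kb of NW_023416295.1, from 60196947 to 60372217. That stretch held 17 regions with a peak in the 10 libraries, of which 3 were open in all 14. Cerebellum was above cortex in 4 of the 11, cortex in 2, and 5 overlapped. A tighter group on the same scaffold, from 61326348 to 61372170, had 6 regions in 45.8 kb, of which 4 were higher in cerebellum and 2 in cortex. Neighbours up to 50 kb apart, where both had a direction, shared it in 209 of 354 pairs (59.0%), against 164 of 298 pairs (55.0%) for neighbours more than 500 kb apart.

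The nearest region open in all 14 brain libraries was a median of 14784 bases away, against 11740 bases for regions shared by cortex and striatum and 19306 bases for regions shared by cerebellum and striatum. The nearest striatal peak was a median of 2712 bases away and lay within 1 kb for 23.0% of the regions.

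The 220 regions that met the rule with the 50000 strongest peaks of each library give the most firmly measured core, and all of them overlap 1 of the 4768. Their median fold was 8.98 and 8.0 in the cerebella of bats 1 and 3 and 7.86 to 11.4 in cortical libraries. Their summits were closer than in the 4768 regions, with a median offset of 32.8 bases against 64, and 135 of the 220 lay within 50 bases. That share was not counted over other regions under this filter, so the closeness cannot be called particular to the 220. Of the 220, 31 (14.1%) had no peripheral peak, against a background of 1.23% among the 20476 regions with a peak among the 50000 strongest of each of the 10 libraries. That share was not counted in the other sets lacking 1 brain tissue, so it cannot be called particular to the 220. The mean share with a peripheral peak differed by -2.51 points from regions shared by cortex and striatum under this filter. It differed by 4.86 points from those shared by cerebellum and striatum, and by -49.4 from those open in all 14.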

How the data were processed

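The authors deposited 1 peak list per ATAC-seq library, in which each row gives a fold enrichment (a ratio over background) and a -log10 p and -log10 q. Bowtie2, MACS2 and Salmon 1.5.2 are named, with no roles, per the submitters' processing notes; the genome build was not given in the sources used here. Nuclei were freed by Dounce homogenisation and strained, per the labels' protocols. Lists held at most 300000 rows.

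Rows with the same interval were joined, keeping the highest fold and -log10 p, and intervals of the 10 libraries were merged (Python 3.11.15, numpy 2.4.6, pandas 2.3.3, scipy 1.17.1). A region's fold and -log10 p in a library are the highest of its overlapping intervals. Regions and comparisons were chosen with earlier results of these data known. The regions named first are the 10 with the highest weakest -log10 p; other examples were chosen after their values were seen. Tests were exact permutations over the peripheral libraries, with Benjamini-Hochberg adjustment over the 3 peripheral comparisons. The test planned for the fold difference between cerebellum and cortex is not given, since the same lists chose the regions. A later test of the summit distances is left out for the same reason. The code was tested on simulated lists. Same-numbered libraries come from the same animal, per the labels. Over 10 pairs of tissues, bat 1 minus bat 3 differences correlated at -0.10 to 0.47. Pairs with cerebellum gave -0.10 to 0.04, and pairs of cortical areas 0.14 to 0.47. Alternatives changed overlap, list strength, floors, scale and libraries. Gene positions, gene lists, named genes and sequence content were not analysed here, because no genome of the files' build was at hand and the gene table places none of its 36769 genes on a scaffold.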

Additional observations from a re-analysis of the deposited data

How the results depend on the processing

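The number of regions depended on how presence was defined. It was 868 when a peak had to cover at least 50% of a region, 220 with the 50000 strongest peaks as present, 1675 with a common floor, 2170 with summits within 50 bases (chosen after seeing the data) and 21402 when only the 50000 strongest striatal peaks counted. Lists of 150000 intervals gave 4396. Leaving out a library or an animal gave 4801 to 8908, with 8908 without bat 1 and 8559 without bat 3. Each removal takes away a requirement of the rule, and all of these counts were above 4768.

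The cerebellar minus cortical log2 difference was -0.29, -0.0094 over all intervals, -0.24 with -log10 p and -0.36 to -0.22 with a library left out. A block by animal changes only the arrangements of the test that is not given, so it cannot change this difference. The summit difference of 43.5 bases and its excess of 36.0 bases ran over 39.6 to 47.4 and 31.8 to 40.2 bases with a library left out. With the 50000 strongest peaks as present, they were smaller, at 23.1 and 18.9 bases. Counts with cerebellum or cortex above ran over 1151 to 1370 and 1530 to 2060 with a library left out. A removal can only keep or raise these counts, which were 1148 and 1522 with all libraries.

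No alternative brought a peripheral comparison under 0.05, but with a library left out none could, since 5 libraries are too few for that. Against the regions open in all 14, the adjusted sign-flip permutation p was 0.0938 in every setting with 6 libraries. With 5 libraries it was 0.1875 in every setting. The difference from regions shared by cortex and striatum changed sign to 0.069 points without muscle of bat 1, with a range of -2.70 to 0.069. The promoter and sequence window alternatives were not run. Depth behind a peak is unknown, and weak peaks can be missing from a list with a high floor. The causes of these changes were not tested.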
